A study of Mus musculus with 4 samples.

Results

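The dual-specificity phosphatase genes Dusp1, Dusp2, Dusp4, Dusp5, Dusp6, Dusp10 and Dusp14 and the Sprouty family genes Spry1, Spry2 and Spred1 were described in T cells of KO and wild-type (WT) mice. They were taken as every probe set (short probes that together report on a transcript) whose platform annotation names 1 of these genes and no other. This gave 19 of the 45101 probe sets in the table and 10 of 18193 genes. The study set out to list the genes that differ between WT and KO cells once naive cells are turned towards regulatory T cells (Treg cells), a lineage that restrains immune responses. T cells of the naive type were taken from mouse spleen, cultured for 3 days in Treg-inducing conditions, and their RNA was hybridised to 4 Affymetrix arrays of 1 colour, 2 for each genotype. Both groups shared the tissue, the culture and its length. The sources used here give neither the deleted gene nor the strain, the age, the agents in the culture or how many mice were behind each array, so no check of the deletion in these libraries was possible. Each array carries its own mouse number, and no separate cultures are described, so p-values reflect only how far these samples differ from each other, part of which may be technical.

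Signals are linear MAS5 values, with a common trimmed mean for all arrays. Array medians lay between 56.5 and 62.6, and precision is limited by how few arrays there are. Over the tested probe sets the arrays of 1 genotype correlated at r = 0.977 to 0.979 and arrays of different genotype at 0.933 to 0.941, as a description across probe sets. The T cell genes Cd3d, Cd3e, Cd3g, Cd4, Cd5 and Foxp3, the 6 of 8 listed markers that had a probe set of their own, were all measured on every array, with a summed signal of 37030 to 38380 in WT and 51180 to 54440 in KO cells. They split: the CD3 chain genes Cd3d, Cd3e and Cd3g were called higher in KO cells, Cd5 (log2 fold change -0.82) and Foxp3, the lineage factor gene of Treg cells, were called lower, and Cd4 did not pass. Foxp3 was at 2177 and 2033 in WT and at 947 and 1101 in KO cells (log2 fold change -1.03, adjusted p = 0.00123, limma). Markers of other cells differed between the genotypes. Of 6 mast cell and basophil markers 5 were called higher in KO cells, and their summed signal was 792 to 1006 in WT and 8325 to 12320 in KO cells. Cpa3, Fcer1a and Ms4a2 among them, like the neutrophil marker S100a9, were at 3.20 to 30.3 in WT cells. These were bright enough to be tested only through their KO signals. Summed signals of 4 eosinophil markers were 22.1 to 87.3 in WT and 2048 to 5447 in KO cells, with Siglecf and Ccr3 under 100 on every array. For the 2 CD8 T cell markers, both called higher, they were 881 to 924 and 2196 to 2653, and for the 5 monocyte and macrophage markers, 4 of them called higher, 378 to 530 and 1382 to 1617. Of 4 measured neutrophil markers 2 were called higher, with sums of 65.4 to 126 and 929 to 1925 and with Mpo and Elane under 100 on every array, and the 2 measured NK cell markers had sums of 185 to 221 and 1689 to 2465, with Ncr1 under 100. The 3 measured B cell markers were not called, at 466 to 1085 in WT and 651 to 952 in KO cells. The part of these cell types in the results that follow was not tested, and in such bulk samples fewer cells of a type and less RNA per cell cannot be told apart.

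Signals from antigen, costimulatory and growth factor receptors run through Ras, Raf and MEK kinases to ERK, and in parallel branches to the stress kinases JNK and p38. Dual-specificity phosphatases remove phosphate from both the threonine and the tyrosine of an activated MAP kinase and so switch it off, and many of their genes are themselves induced by the pathway they restrain. Sprouty and Spred proteins act higher up, at the level of Ras and Raf, and are also known as feedback inhibitors. In T cells, proteins of both families are known to set how strong and how long MAP kinase signalling is after activation.

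In KO cells Dusp14 rose, Dusp10 and Spry1 fell, and none of the nuclear phosphatase genes Dusp1, Dusp2, Dusp4 and Dusp5 passed the test. Of the 19 probe sets 15 were bright enough to be tested, at least 1 for each of the 10 genes. The other 4, 1 each of Dusp10 and Spry2 and 2 of Spred1, were among the dimmest 40% by their mean over the 4 arrays. A probe set was called at an adjusted p under 0.05 (limma, Benjamini-Hochberg over all 27022 tested probe sets). The called member probe sets were 1 higher and 2 lower, beside 7.89% of all tested probe sets called higher and 9.17% called lower. Taking the brightest tested probe set of each gene, 3 of 10 genes were called, beside 20.3% of all 12547 tested genes, and the median log2 fold change of the 10 was -0.03, beside -0.03 over all tested genes. The groups did not overlap at 11 of the 15 tested probe sets, beside 60.2% of all tested probe sets. Log2 fold changes are KO minus WT on the log2(signal + 16) scale, which understates changes of dim genes. Signals of different genes were not set against each other, since each probe set has its own brightness.

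**Figure D1:**
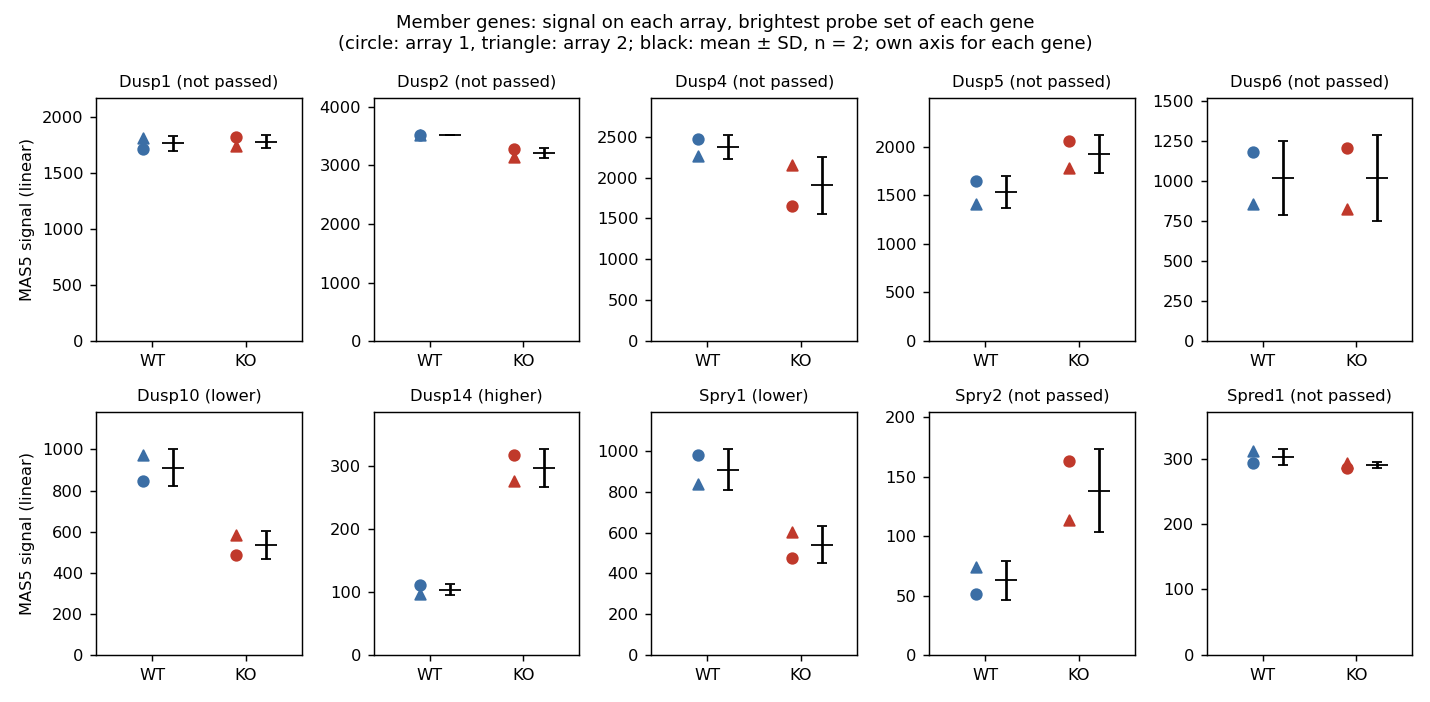
MAS5 signal (linear, own axis from 0 for each gene) of the brightest probe set of each member on the 2 WT and 2 KO arrays, with circles for arrays numbered 1, triangles for arrays numbered 2, and black bars for mean ± SD (n = 2). Dusp14 lay at 97.6 and 111 on the WT arrays and at 276 and 319 on the KO arrays, Dusp10 and Spry1 were lower on both KO arrays than on both WT arrays, and for Dusp6 the circles lie above the triangles in both genotypes.

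Dusp14 encodes a small atypical phosphatase that lacks the MAP kinase binding domain of the classical members and is known to restrain T cell receptor signalling. Its signal was 111 on WT array 1, 97.6 on WT array 2, 319 on KO array 1 and 276 on KO array 2. Both KO arrays stood well above both WT arrays, and the arrays of 1 genotype were close to each other. The mean rose from 104 ± 9.25 to 297 ± 30.2 (mean ± SD, n = 2 per group), a 2.61-fold rise with a 95% interval of 1.80 to 3.77 (log2 fold change 1.38 ± 0.23, ± SE, limma, adjusted p = 0.00515). The difference between the arrays of a genotype was 0.16 in WT and 0.20 in KO cells on the log2 scale. Dusp14 was called under all 14 alternatives tried, with adjusted p-values of 0.00261 to 0.0371.

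Dusp10 encodes a phosphatase of JNK and p38, and mice that lack it are known for altered T cell cytokine production. Its brighter probe set gave a signal of 847 on WT array 1, 975 on WT array 2, 486 on KO array 1 and 584 on KO array 2. The groups did not overlap, and the lower WT array was still well above the higher KO array. The mean fell from 911 ± 90.7 to 535 ± 69.2, or 1.69-fold (log2 fold change -0.75 ± 0.16, adjusted p = 0.0155, limma). The dimmer Dusp10 probe set was at 43.1 and 31.2 in WT and at 33.9 and 24.8 in KO cells, overlapped between the groups and was not tested. The call of Dusp10 was lost without WT array 2 (adjusted p = 0.0992, log2 fold change -0.65), without KO array 1 (adjusted p = 0.0538, -0.62) and without an intensity trend in limma's variance prior (adjusted p = 0.0952).

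Spry1 encodes a Sprouty protein, an inducible inhibitor of the path from receptors to ERK that is known to be made after T cell activation. Its signal was 980 on WT array 1, 837 on WT array 2, 477 on KO array 1 and 605 on KO array 2. Again both KO arrays were below both WT arrays, and the KO arrays differed more from each other than the WT arrays did, by 0.33 against 0.22 on the log2 scale. The mean fell from 909 ± 101 to 541 ± 90.3, or 1.67-fold (log2 fold change -0.74 ± 0.17, adjusted p = 0.0215, limma). This call was lost without WT array 1 (adjusted p = 0.11, log2 fold change -0.63), without KO array 1 (adjusted p = 0.0758, -0.57) and without the intensity trend (adjusted p = 0.112).

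Spry2, a close relative of Spry1 with the same kind of inhibitory role, had a dim signal of 51.2 on WT array 1, 74.2 on WT array 2, 163 on KO array 1 and 113 on KO array 2 in its brighter probe set. The KO arrays were the higher ones, without overlap, but the arrays of each genotype were far apart. The log2 fold change was 0.97 ± 0.33, a fold of 1.96 with a 95% interval of 1.16 to 3.29, and it did not pass (adjusted p = 0.0804, limma). Under its 13 alternatives the adjusted p was 0.0648 to 0.293. The other Spry2 probe set was at 31.0 and 29.9 in WT and at 31.9 and 9.31 in KO cells and was not tested. Whether Spry1 and Spry2 differ in their response was not tested.

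**Figure D2:**
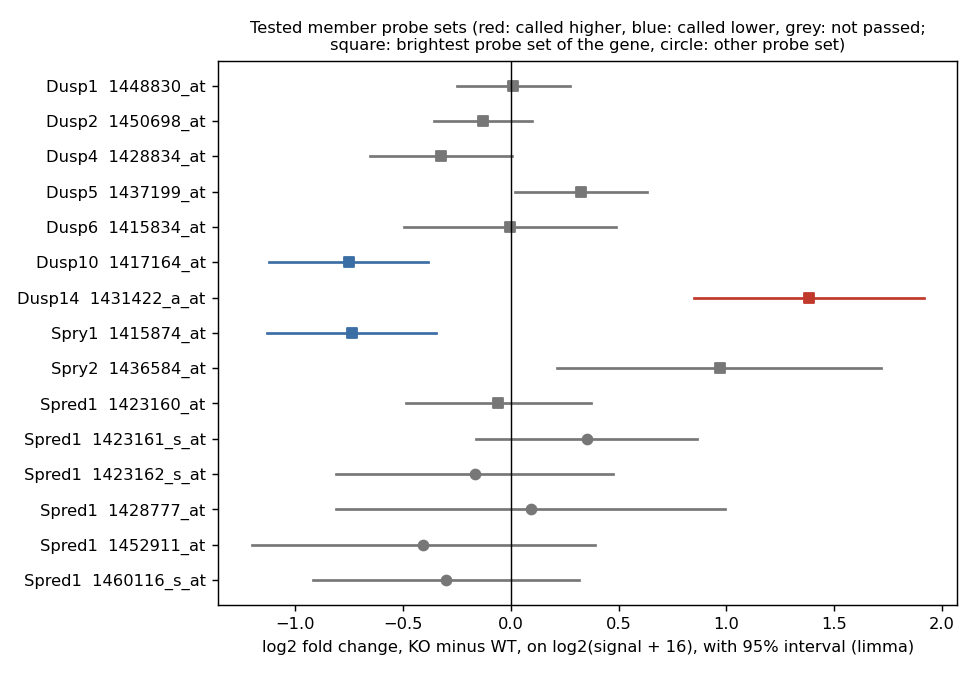
Log2 fold change, KO minus WT, on the log2(signal + 16) scale with its 95% interval (limma) for the 15 tested member probe sets, with red for called higher, blue for called lower and grey for not passed, and squares for the brightest probe set of a gene. Dusp14 lies at 1.38, Dusp10 and Spry1 lie at -0.75 and -0.74, and the 6 Spred1 probe sets spread on both sides of 0.

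The start regions of the 3 called genes are shown so that they can be compared with those of the inducible nuclear phosphatase genes further on. Each covers 250 bases before and 50 bases after the transcription start, 5′ to 3′ on the gene's strand, from RefSeq (GRCm38.p6). They are Dusp14 (chr11:84068308-84068607, minus strand), Dusp10 (chr1:184034131-184034430, plus strand) and Spry1 (chr3:37639697-37639996, plus strand). Capitals mark every match to a motif searched, on either strand. The motifs were the cAMP response element (CRE) TGACGTCA and its short form TGACG, which lies within it, AP-1 TGANTCA, ETS CCGGAAGT, the EGR forms GCGGGGGCG and GCGTGGGCG, STAT TTCNNNGAA, the E-box CACGTG, and the serum response element by its CArG box.
Dusp14: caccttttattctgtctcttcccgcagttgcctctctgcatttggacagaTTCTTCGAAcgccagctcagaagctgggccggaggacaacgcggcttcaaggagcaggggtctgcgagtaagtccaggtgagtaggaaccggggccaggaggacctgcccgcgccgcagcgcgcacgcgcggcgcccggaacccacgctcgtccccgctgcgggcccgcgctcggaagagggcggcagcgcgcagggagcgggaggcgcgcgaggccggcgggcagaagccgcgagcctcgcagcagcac
Dusp10: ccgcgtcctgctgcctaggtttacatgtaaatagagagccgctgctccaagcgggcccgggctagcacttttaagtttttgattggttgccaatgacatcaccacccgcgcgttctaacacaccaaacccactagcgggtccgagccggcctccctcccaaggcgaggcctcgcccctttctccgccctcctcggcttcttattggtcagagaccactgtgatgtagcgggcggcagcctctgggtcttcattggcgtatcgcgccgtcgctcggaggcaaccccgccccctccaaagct
Spry1: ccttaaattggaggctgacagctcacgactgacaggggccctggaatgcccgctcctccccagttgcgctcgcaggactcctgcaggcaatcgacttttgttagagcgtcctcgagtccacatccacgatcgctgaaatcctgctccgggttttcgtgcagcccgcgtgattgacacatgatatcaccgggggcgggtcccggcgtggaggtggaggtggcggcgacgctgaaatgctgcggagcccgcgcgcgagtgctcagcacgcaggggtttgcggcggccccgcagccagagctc

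The Dusp14 region held 1 match, to the STAT motif at bases -200 to -192 from the start, and 8.3% of all 32851 start regions of this length hold that motif. The Dusp10 and Spry1 regions held no match to any of these motifs, which says only that these letters are not in this window. A match is a description of the sequence and no evidence that a factor binds there. The regions had a GC content of 69.7% for Dusp14, 61% for Dusp10 and 64.3% for Spry1, with 37, 24 and 29 CpG dinucleotides, against medians of 52.7% and 7 over all regions. Regions of members that were not called also lay above these medians, from 57.3% and 19 for Dusp6 to 72.3% and 40 for Spred1. Of the 10 genes 9 were found in the table of start regions, and Dusp4 was not.

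The nuclear phosphatases Dusp1, Dusp2, Dusp4 and Dusp5 are products of immediate early genes and are known to be made quickly after activation. Dusp1, which acts on p38 and JNK in particular, had a signal of 1714 on WT array 1, 1809 on WT array 2, 1817 on KO array 1 and 1735 on KO array 2. The 4 values interleave, and the KO over WT fold was 1.01 with a 95% interval of 0.841 to 1.21 (adjusted p = 0.959, limma). This interval is narrow for these data, so a change of Dusp1 RNA by 1.5-fold lies outside it. Dusp2, a phosphatase of activated lymphocytes, was at 3515 and 3513 in WT and at 3276 and 3150 in KO cells. Both KO values were lower by a small amount, at a fold of 0.915 with an interval of 0.781 to 1.07, and the difference did not pass (adjusted p = 0.423, limma).

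Dusp4 and Dusp5 stood apart from WT in opposite directions, and neither passed. Dusp4 was at 2475 on WT array 1, 2266 on WT array 2, 1656 on KO array 1 and 2151 on KO array 2. The KO arrays were both lower but far from each other, with a log2 fold change of -0.32 ± 0.14 (adjusted p = 0.166, limma). Without KO array 2 Dusp4 was called lower at -0.51 (adjusted p = 0.033), so its position rests on which KO array is used. Dusp5, which acts on ERK and anchors it in the nucleus, was at 1650 and 1415 in WT and at 2060 and 1785 in KO cells. Both KO values lay above both WT values, at a log2 fold change of 0.32 ± 0.13 and a fold of 1.25 with an interval of 1.01 to 1.55 (adjusted p = 0.139, limma), and Dusp5 was not called under any of 14 alternatives.

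The start regions of Dusp1 (chr17:26508423-26508722, minus strand) and Dusp5 (chr19:53528895-53529194, plus strand) are shown because they hold matches to the CRE and CArG motifs (RefSeq, GRCm38.p6, same window, strand and capitals as above).
Dusp1: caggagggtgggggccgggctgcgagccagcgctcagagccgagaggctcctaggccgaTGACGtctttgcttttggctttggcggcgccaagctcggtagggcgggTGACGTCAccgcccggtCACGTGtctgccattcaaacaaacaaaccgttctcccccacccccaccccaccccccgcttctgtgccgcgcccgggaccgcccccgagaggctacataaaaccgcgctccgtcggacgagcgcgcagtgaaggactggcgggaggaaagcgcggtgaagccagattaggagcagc
Dusp5: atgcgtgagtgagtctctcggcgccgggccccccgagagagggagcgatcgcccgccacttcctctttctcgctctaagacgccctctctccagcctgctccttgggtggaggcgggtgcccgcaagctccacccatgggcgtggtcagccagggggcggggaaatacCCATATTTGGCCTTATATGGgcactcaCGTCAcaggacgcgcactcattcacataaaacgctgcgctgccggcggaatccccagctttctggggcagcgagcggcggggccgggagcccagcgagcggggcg

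Dusp1 held the CRE at bases -143 to -136, a further short CRE at -191 to -187 and an E-box at -126 to -121. The full CRE is in 1.79% of all start regions, the short form in 20.8% and the E-box in 7.15%. Dusp5 held a pair of adjoining CArG boxes at bases -82 to -73 and -72 to -63, with a short CRE at -55 to -51, and 1.63% of all start regions hold a CArG box. Dusp2, not printed, held an E-box at -109 to -104, the first EGR form at -98 to -90 and a short CRE at 6 to 10, and 2.91% of all regions hold that EGR form. Those of Dusp6, Spry2 and Spred1 held no match, and AP-1, ETS and the second EGR form were found in none of the 9 regions, against 7.81%, 3.89% and 0.612% of all regions. The RNA of the 3 genes with matches to CRE, EGR or CArG motifs did not pass the test between the genotypes. Nor did that of Dusp6, Spry2 and Spred1, which held no match, while Dusp10 and Spry1, also without a match, were called. Of all tested genes 20.3% were called, and a link between motifs and calls was not tested.

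**Figure D3:**
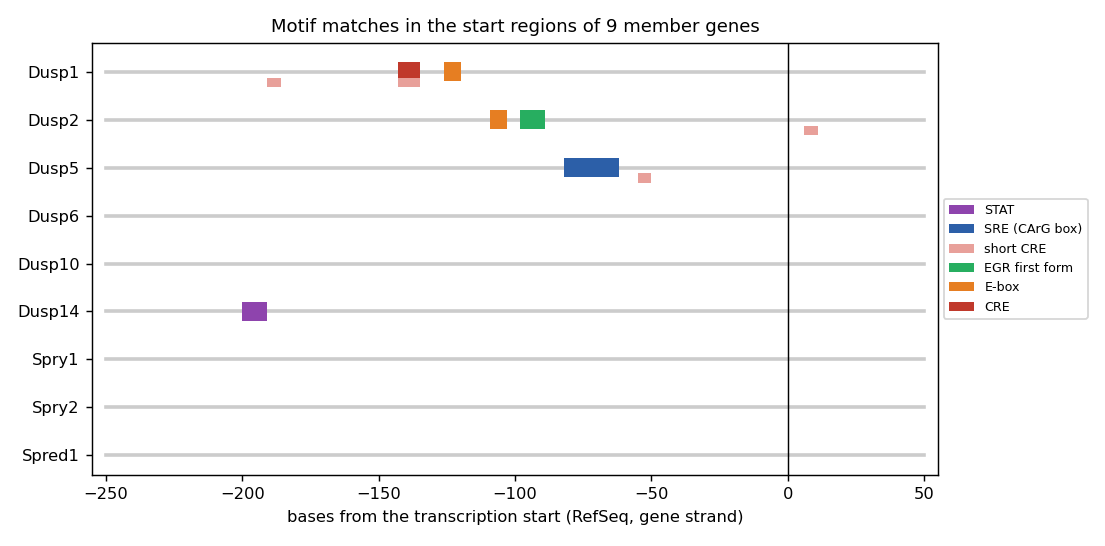
Positions of motif matches in the start regions of 9 member genes, in bases from the transcription start on the gene's strand (RefSeq), with colours for the motifs and lower bars for the short CRE. Matches lie in Dusp1, Dusp2 and Dusp5 and, as 1 STAT match at -200 to -192, in Dusp14, and the lines of the other 5 genes are empty.

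Dusp6, the cytoplasmic phosphatase specific for ERK and a common readout of ERK activity, differed more between arrays of 1 genotype than between the genotypes. Its signal was 1179 on WT array 1, 852 on WT array 2, 1206 on KO array 1 and 827 on KO array 2. In both genotypes the array numbered 1 was higher, by 0.46 in WT and 0.54 in KO cells on the log2 scale, while the genotypes differed by -0.01 ± 0.21 (adjusted p = 0.992, limma). The 95% interval of the KO over WT fold, 0.709 to 1.40, is wider than that of Dusp1. Sources used here do not say what arrays of the same number share. Dusp5 had the same order, higher on array 1 by 0.22 in WT and 0.20 in KO cells, whereas Dusp10 was higher on array 2 in both genotypes, by 0.20 and 0.26.

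Spred1, which brings the Ras inhibitor neurofibromin to the membrane, had 8 probe sets, 6 of them tested and none called. The brightest was at 294 and 311 in WT and at 286 and 293 in KO cells, a fold of 0.96 with an interval of 0.713 to 1.29 (adjusted p = 0.869, limma). The values of the 4 arrays were nearly the same, with both KO arrays just below both WT arrays. The other 5 tested probe sets had log2 fold changes from -0.41 to 0.35 with adjusted p-values of 0.328 to 0.904, so their signs differed and none passed. The 2 untested ones had signals of 4.01 to 24.2.

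**Figure D4:**
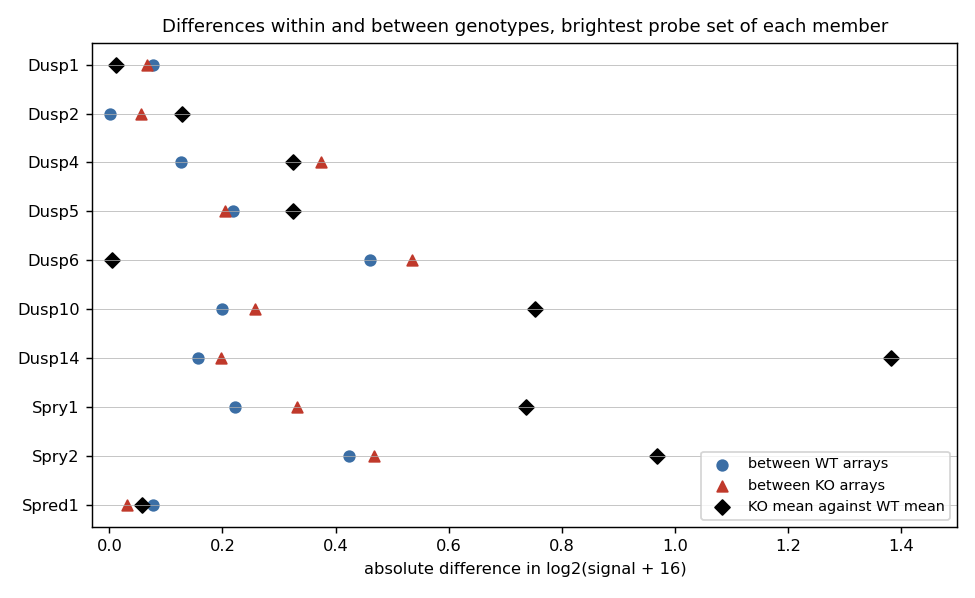
Absolute difference in log2(signal + 16) for the brightest probe set of each member, between the 2 WT arrays (circles), between the 2 KO arrays (triangles) and between the genotype means (diamonds). For Dusp14, Dusp10, Spry1 and Spry2 the genotypes differed by more than the arrays within either genotype, as they did by smaller amounts for Dusp5 and Dusp2, while for Dusp6 the within-genotype differences were 0.46 and 0.54.

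Among the closest relatives, the classical MAP kinase phosphatase genes Dusp7 and Dusp9 were called in opposite directions. Dusp7, like Dusp6 a cytoplasmic ERK phosphatase, was at 609 and 515 in WT and at 179 and 186 in KO cells in its brightest probe set (log2 fold change -1.54 ± 0.19, adjusted p = 0.00112, limma). This probe set is marked as cross-hybridising, and the other 2, at -0.33 ± 0.22 and -0.51 ± 0.37, did not pass (adjusted p = 0.34 and 0.394). Dusp9, a further ERK phosphatase, was dim in WT cells at 27.3 and 41.1 and reached 95.02 and 143 in KO cells in its brightest probe set (1.42 ± 0.37, adjusted p = 0.0329). That call was lost with either WT array or KO array 2 left out and when all probe sets were tested with no filter. The other 2 probe sets were dimmer in WT cells, at 8.67 to 31.3, and cleared the filter through their KO signals. Dusp16, a JNK and p38 phosphatase like Dusp10, was at 201 and 319 in WT and at 416 and 486 in KO cells, higher on both KO arrays but not past the test (0.79 ± 0.24, adjusted p = 0.0566). Its adjusted p was under the threshold in 6 of 13 alternatives. Dusp8 was not tested, with signals of 7.52 to 38.6.

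Of 10 tested genes of atypical phosphatases 1 was called, Dusp22, which is 10% beside 20.3% of all tested genes. Dusp22, a phosphatase known to act on the T cell kinase Lck, fell from 1050 and 1021 in WT to 702 and 699 in KO cells (-0.55 ± 0.13, adjusted p = 0.0249, limma), a call that was lost whichever single array was left out. Dusp3 was dim and higher on both KO arrays (0.94 ± 0.34, adjusted p = 0.0932), and Dusp19 was at 0.29 ± 0.13 (adjusted p = 0.159). The brightest probe sets of Dusp11, Dusp12, Dusp13, Dusp15, Dusp23, Dusp28 and Styx had log2 fold changes of -0.23 to 0.48 and adjusted p-values of 0.444 to 0.897, and Dusp18, Dusp21 and Dusp26 were too dim to be tested. Spred2 rose from 2604 and 2308 in WT to 3137 and 3582 in KO cells (0.45 ± 0.12, adjusted p = 0.0355), which was lost with no filter and with either WT array or KO array 2 left out, and its other 3 tested probe sets did not pass. Spry4 was at 88.1 and 51.5 in WT and at 4.04 and 67.4 in KO cells, with its KO arrays far apart (-1.04 ± 0.65, adjusted p = 0.323). Without KO array 2 it was called at -2.06 (adjusted p = 0.032) and without KO array 1 it was at -0.01, so no direction can be given. Spry3 and Spred3 were not tested.

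Of the genes known to be induced through ERK, 2 of 15 tested were called higher and 6 lower, beside 10.5% and 9.87% of all tested genes, with a median log2 fold change of -0.20 beside -0.03 over all genes. The lower ones were the immediate early transcription factor genes Egr1 (-0.41 ± 0.10), Egr2 (-0.65 ± 0.14), Egr3 (-0.98 ± 0.17) and Fos (-0.89 ± 0.18), together with Ier2 (-0.60 ± 0.09) and Phlda1 (in parentheses, log2 fold change ± SE). Phlda1, a gene widely used as a readout of MEK activity, fell from 2752 and 2058 in WT to 1031 and 1123 in KO cells (-1.13 ± 0.16, adjusted p = 0.00191, limma). Ier3 went the other way, from 1618 and 2174 to 8802 and 10050 (2.32 ± 0.15, adjusted p = 4.3e-05), as did the AP-1 subunit gene Fosl2, from 954 and 1134 to 2840 and 3622 (1.61 ± 0.15, adjusted p = 0.000304). The list thus moved both ways, and Dusp6, which has the same use as a readout, was not called. Leaving out WT array 1 ended the calls of Egr1 and Egr2, and so did leaving out WT array 2. Centring each array on its median, or testing with no filter, ended that of Egr1 as well.

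**Figure D5:**
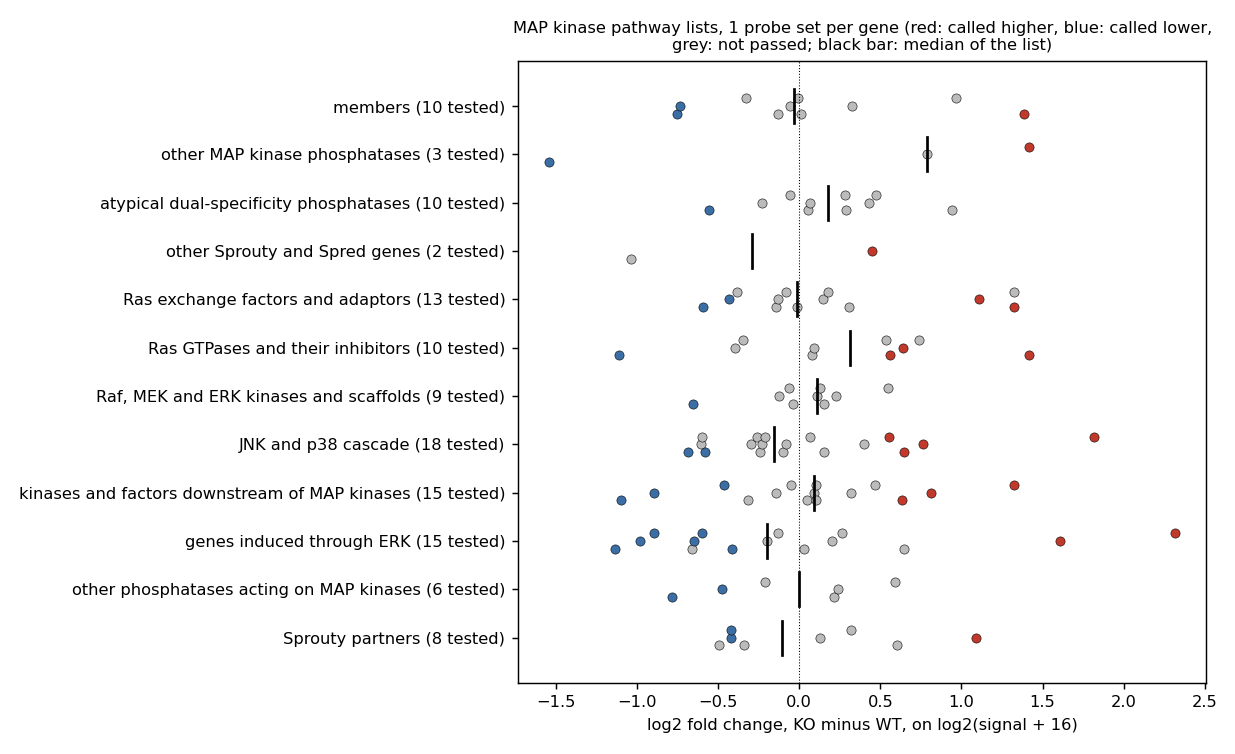
Log2 fold change, KO minus WT, on the log2(signal + 16) scale for the tested genes of each MAP kinase list, 1 probe set per gene, with red for called higher, blue for called lower, grey for not passed and a black bar for the median. Among genes induced through ERK 6 blue and 2 red points lie on opposite sides of 0, and Ier3 lies farthest to the right at 2.32.

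Upstream of the phosphatases, the called exchange factor genes fell, and the called adaptor and scaffold genes rose. Exchange factors load GTPases of the Ras family with GTP. Among tested exchange factor genes that did not pass, Rasgrp3 had a log2 fold change of 1.32, Sos1 of -0.385 and Sos2 of -0.01. Of 13 tested exchange factor and adaptor genes 2 rose and 2 fell, 30.8% in all, and of 10 genes of Ras GTPases and their inhibitors 40% were called, beside 20.3% of all tested genes. Grb2, the adaptor that links receptors to the exchange factor Sos, rose from 1658 and 1752 in WT to 3666 and 3713 in KO cells (1.11 ± 0.11, adjusted p = 0.000319, limma), and the scaffold gene Gab2 rose from 180 and 234 to 610 and 474 (1.32 ± 0.22, adjusted p = 0.00436). Rasgrp1, the main Ras exchange factor of T cells, fell in its brightest probe set from 7820 and 8802 to 5973 and 6336 (-0.43 ± 0.10, adjusted p = 0.0212, limma). The other tested Rasgrp1 probe sets were dimmer, lay at -0.85 to -0.06 and did not pass. Rasgrp2 fell by 0.59 ± 0.17. In the second list 3 rose, the GTPase genes Nras (0.64 ± 0.14) and Rras (0.56 ± 0.13) and the Ras GTPase activating gene Rasa4 (1.42 ± 0.32). In that list 1 fell, Rasa3, a Ras GTPase activating gene like Rasa4, from 7513 and 8039 to 3885 and 3321 (-1.11 ± 0.11, adjusted p = 0.000375, limma). The other tested probe set of Gab2 was at -0.23 and that of Rasa4 at 0.13, and neither passed. Leaving out WT array 2 ended the calls of Rasgrp1, Rasgrp2, Nras, Rras and Rasa4, leaving out WT array 1 those of Rasgrp2 and Rras, leaving out KO array 1 those of Rasgrp2 and Rasa4, and leaving out KO array 2 that of Rras. The call of Rasgrp2 was also lost after quantile normalization or median centring, and those of Rasgrp2 and Rasa4 with no filter.

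Of 9 tested genes for kinases and scaffolds of the ERK branch, among them Araf, Braf, Map2k1 and Map2k2, 8 did not pass and the Raf scaffold gene Shoc2 fell, which is 11.1% called beside 20.3% of all tested genes. Shoc2 was at -0.65 ± 0.17 (adjusted p = 0.0312, limma), a call lost without WT array 2, without KO array 2 or with no filter. Its other tested probe set was dimmer, had the opposite sign at 0.21 and did not pass. Araf (0.55, adjusted p = 0.0527) and Lamtor3 (0.23, adjusted p = 0.25) had the next smallest p-values. The median of this list was 0.11.

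In the JNK and p38 branch, on which Dusp10 acts, 4 of 18 tested genes rose and 2 fell, 33.3% in all beside 20.3% of all tested genes, with a median of -0.15. The activators Gadd45g (1.82 ± 0.18) and Gadd45b (0.55 ± 0.14) rose. So did Map2k3, a kinase of p38, from 4007 and 3698 in WT to 6110 and 5929 in KO cells (0.64 ± 0.10, adjusted p = 0.00317, limma). Mapk9, which encodes a JNK, rose in its brightest probe set (0.76 ± 0.13, adjusted p = 0.00516, limma). Of its other probe sets, the one at 0.79 was called higher and the one at -0.01 did not pass. Mapk8, which encodes a further JNK, did not pass in its brightest probe set (-0.60 ± 0.22, adjusted p = 0.098, limma). Its dimmer probe sets at -1.17, -0.84 and -0.82 were called lower, and the one at -0.69 was not. Mapk14, which encodes p38 alpha, fell in its brightest probe set from 4650 and 4104 to 3092 and 2757 (-0.58 ± 0.12). The other tested Mapk14 probe sets were dimmer, lay at -0.28 to 0.13 and did not pass. Map3k3 fell by 0.68 ± 0.12. Downstream, 40% of 15 genes were called, 3 higher and 3 lower. Mapkapk3 (0.82 ± 0.09), a kinase activated by p38, the JNK target gene Jun (1.33 ± 0.15) and Elk3 (0.63 ± 0.14) rose. Elk4 (-0.89 ± 0.11), Ets1 (-0.46 ± 0.09) and Ets2 (-1.09 ± 0.20) fell. The called ETS family genes, Elk3 among them, thus went both ways. Leaving out WT array 1 ended the calls of Mapk14, Gadd45b and Ets1, leaving out WT array 2 those of Elk3 and Ets1, and leaving out KO array 2 that of Gadd45b.

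Over all these lists without the 10 members, 17 of 107 tested genes were called higher and 21 lower, 35.5% in all, beside 20.3% of all tested genes. Without the intensity trend 6 of the 38 called genes were still called, namely Dusp7, Fosl2, Gadd45g, Grb2, Ier3 and Rasa3, and leaving out WT array 2 left 20 of them.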

How the data were processed

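The deposited values are linear signal intensity values of 45101 probe sets, made by the authors with MAS5 per the submitters' processing notes, whose version is not given in the sources used here. After 2% of the probe sets were trimmed at each end, the array means were equal at 500. Such scaling hides differences in total RNA per cell, and dim signals vary strongly between arrays. Genes were named by the platform annotation, in which 34945 of the 45037 probe sets left after 64 controls name 1 gene, 932 several and 9160 none. All 10 member symbols matched the RefSeq table.

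The authors' signals were converted to log2(signal + 16), the dimmest 40% were left out, and the genotypes were contrasted by limma 3.58.1 (R 4.3.3, lmFit and eBayes with an intensity trend, two-sided) over 27022 probe sets. Residual degrees of freedom were 2 and prior ones 6.41. With 2 arrays in each group, no exact permutation p under 0.333 (two-sided) can be reached. The fit was also run on data simulated from its own fitted variances, which cannot check whether its assumptions hold for these arrays. For lists, the brightest tested probe set stood for a gene. Named were the members, their relatives, up to 3 genes of the smallest p per list and, after their values were seen, the other called genes. Members and lists were chosen with earlier results of these data known. Alternatives were other pseudocounts, filters and scalings, no trend, a replicate block, no cross-hybridising probe sets, each array left out, and a mean over a gene's probe sets.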

Additional observations from a re-analysis of the deposited data

How the results depend on the processing

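Of 202 values of member probe sets under alternatives, 185 kept the direction and the side of the threshold, 6 lost a call (those of Dusp10 and Spry1 in the report), 1 gained one (Dusp4 without KO array 2) and 10 changed sign without a call. Without the intensity trend the calls over all probe sets numbered 1183 instead of 4608, the members called lower 0 instead of 2, and the other pathway genes 4 higher and 2 lower instead of 17 and 21. This 0 is limma's, and the unadjusted p-values of Dusp10 and Spry1 were then 0.0117 and 0.0174, the 2 lower ones under 0.05. With single arrays left out, all calls ranged from 2575 (without WT array 2, and 2938 without WT array 1) to 4484, members called lower from 0 (without KO array 1) to 3 (without KO array 2), and other pathway genes from 12 to 16 higher and from 10 (without WT array 2, and 12 without WT array 1) to 20 lower. The lone array left in a group is assumed to vary like the other group. Signs near 0 turned. Dusp6 was at 0.023 after quantile normalization, 0.035 after median centring and -0.273 to 0.263 with single arrays left out, and Dusp1 was then at -0.027 to 0.051, Spred1 at -0.401 to 0.064 and -0.155 to 0.340 in 2 of its dim probe sets, Dusp11 at -0.009 to 0.146 and Dusp12 at -0.146 to 0.259. The cause of these changes was not tested. Arrays share numbers across the genotypes, but deviations of same-numbered arrays correlated at 0.0103 across probe sets. With the array number as a replicate block 5382 probe sets were called, 1 member higher and 2 lower, and no member call changed. Signals near the background limit what can be said of Spry2, Spry4 and Dusp9.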

Other observations

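Phosphatases outside the dual-specificity family and partners of the Sprouty proteins were described as lists too. Of 6 tested other phosphatases that act on MAP kinases 2 fell and none rose, beside 9.87% and 10.5% of all tested genes. Ppm1a, a serine and threonine phosphatase, fell in its brightest probe set from 2795 and 2830 in WT to 2004 and 2040 in KO cells (-0.47 ± 0.11, adjusted p = 0.0182, limma). Its other tested probe sets lay on both sides of 0, at -0.38 to 0.57, and did not pass. Ppm1d, the p53-induced Wip1, fell from 695 and 909 to 508 and 407 (-0.79 ± 0.19, adjusted p = 0.0248, limma). Ppp2ca, a catalytic subunit of PP2A, was at 0.24 (adjusted p = 0.0958). The call of Ppm1a was lost without WT array 1 or WT array 2, and that of Ppm1d without WT array 2 or KO array 2. Of 8 genes listed as Sprouty partners 37.5% were called, beside 20.3% of all tested genes. The ubiquitin ligase genes Cbl (-0.42 ± 0.11, adjusted p = 0.0303) and Cblb (-0.42 ± 0.12, adjusted p = 0.0408, limma) fell in their brightest probe sets. The other tested Cbl probe sets were at 0.49 and 0.17 and did not pass. Those of Cblb were at -1.12, called lower, and at -0.30, not passed. Both calls in the brightest probe sets were lost after centring each array on its median, and with either WT array or KO array 2 left out. That of Cblb was also lost with KO array 1 left out and with no filter. Fgfr1, a growth factor receptor gene, was dim and rose from 66.0 and 61.4 to 123 and 191 (1.09 ± 0.32, adjusted p = 0.0483), which was lost with either WT array or KO array 2 left out, with no filter and with a pseudocount of 1.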
